A study of Mus musculus with 6 samples.

Results

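The 44 collagen genes of the mouse were examined in whole hearts of 7-day-old mice in which the glucocorticoid receptor had been deleted in cardiomyocytes (GR-cKO, 3 libraries) and of control mice (3 libraries). They were every protein-coding gene whose symbol has the form Col, number, a, number, among 52550 mouse genes in the count files, and they were set in 3 classes. Fibrillar collagens (types I, II, III, V, XI, XXIV and XXVII) had 11 genes, basement membrane collagens (types IV, XV and XVIII) had 8, and the other types had 25. The series title restricts the deletion to cardiomyocytes, while the labels name neither the Cre line, the deleted exon nor the genotype of the control mice, and they describe each library as a biological replicate. Total RNA of homogenised hearts was made into 3′ mRNA libraries (QuantSeq FWD), which give about 1 read per transcript at its 3′ end, so a read count is not multiplied by transcript length.

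Collagens are triple helices of 3 chains. Fibrillar types I, III and V form the tensile fibres between heart muscle cells and are made mainly by fibroblasts. Type IV builds the sheet-like network of basement membranes that surrounds cardiomyocytes and capillaries, and type VI forms beaded filaments that join that sheet to the fibres. After birth the heart lays down much new fibrillar matrix while it grows.

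The libraries held 18135540 to 22999192 reads, and 18851 to 19673 mouse genes had a read. Nr3c1, the glucocorticoid receptor gene, was at 57.6, 49.2 and 56.2 CPM in GR-cKO hearts, against 114, 131 and 99.7 CPM in control hearts (CPM, counts per gene as a share of the counts of all tested genes in that library, scaled between libraries by the trimmed mean of M-values). Nr3c1 fell by 1.08 on the log2 scale (SE 0.125, edgeR quasi-likelihood test, adjusted p = 0.00101), and it was the only gene of 14860 tested, or 0.00673%, that passed the adjusted threshold of 0.05. Cardiomyocyte markers were present, as the label heart asks, with summed levels of 71537 to 87689 CPM in GR-cKO hearts and 66089 to 76471 CPM in control hearts. A pair of libraries stood apart. GR-cKO replicate 3 had 10.9% of its mouse gene reads on Gm42418, a transcript that overlaps ribosomal RNA sequence, against 5.47 to 7.69% in the other 5 libraries, and its summed level of 15 S phase and mitosis markers was 373 CPM, against 576 to 677 CPM in the others. Control replicate 2 had a summed level of 289 CPM for 6 adipose tissue markers, against 117 to 176 CPM in the others. Cidea weighed most in these sums, and its level ran from 117 CPM in control replicate 3 to 167 CPM in GR-cKO replicate 3. Every other adipose marker was highest in control replicate 2. Ucp1, singled out after its values were seen, reached 89.3 CPM there. Its next highest level was 18.8 CPM, found in GR-cKO replicate 2.

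No collagen gene passed the test between genotypes. Of the 44 genes, 35 had enough reads to be tested, and none of them was called higher or lower (smallest edgeR adjusted p = 0.998), against 0.00673% of all tested genes called. At an unadjusted p under 0.05, 4 of the 35 stood out, 3 lower (Col3a1, Col5a2 and Col6a1) and 1 higher (Col26a1) in GR-cKO hearts. That is 11.4% of the tested collagens, against 4.2% of all tested genes (2.13% lower and 2.07% higher). DESeq2 and limma voom also called 0 collagens, with 4 and 5 at an unadjusted p under 0.05. That count was 1 with scaling by the ERCC spike-in RNAs and 1 without control replicate 2. The 3 GR-cKO libraries lay entirely to 1 side of the 3 control libraries for 5 collagens, or 14.3%, against 9.97% of all tested genes. Of these, 4 lay below (5.27% of all tested genes did) and 1 above (4.7%).

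The collagens leaned to lower values in GR-cKO hearts by a small margin. Of the 35 tested, 28 were lower and 7 higher in GR-cKO hearts, and 48.7% of all tested genes were lower. Their median log2 fold change was -0.05, beside 0.01 for all tested genes. With a library left out the count of lower collagens was 28, 22 and 23 without GR-cKO replicates 1, 2 and 3, and 26, 25 and 25 without control replicates 1, 2 and 3. With scaling by the ERCC spike-in RNAs it was 22. Collagen reads together made up 0.535%, 0.547% and 0.440% of mouse gene reads in GR-cKO replicates 1, 2 and 3, and 0.546%, 0.597% and 0.553% in control replicates 1, 2 and 3. The lowest share was that of GR-cKO replicate 3 and the highest that of control replicate 2, and the groups overlapped at about 0.55%. With TMM scaling, the summed level of all collagens was 5323, 5180 and 4869 CPM in GR-cKO replicates 1, 2 and 3, against 5387, 5889 and 5477 CPM in control replicates 1, 2 and 3, and the groups did not overlap. No test was made of these sums.

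**Figure D1:**
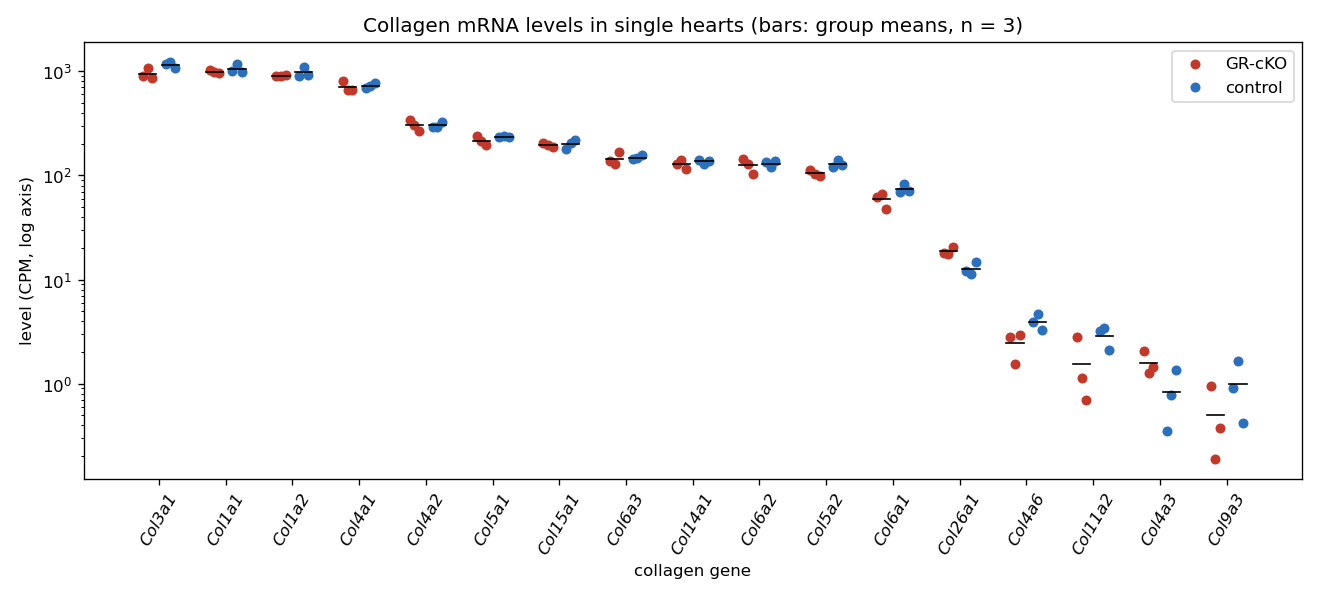
Level of the 17 collagen genes described one by one (CPM, log axis) in each of the 3 GR-cKO libraries (red, left of each pair) and the 3 control libraries (blue), with bars at the group means. The levels span from about 1 CPM for Col9a3 to the highest levels for Col3a1, Col1a1 and Col1a2, and for most genes the points of the groups overlap.

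A few chains held most of the collagen reads. Col1a1, Col1a2, Col3a1, Col4a1 and Col4a2 together took 74.6%, 75.4% and 75.3% of collagen reads in GR-cKO replicates 1, 2 and 3, and 75.5%, 76.8% and 74.6% in control replicates 1, 2 and 3. As a class, fibrillar genes took 60.7 to 63.9% of collagen reads in GR-cKO hearts and 62.0 to 66.8% in control hearts. Basement membrane genes took 24.6 to 27.9% in GR-cKO hearts and 22.9 to 26.3% in control hearts. The other types took 11.5 to 11.7% in GR-cKO hearts and 10.3 to 11.7% in control hearts. The balance of the 3 classes therefore differed between the genotypes by less than its range within the control hearts.

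The fibrillar class had the most uniform direction. Of its 10 tested genes, 9 were lower and 1 was higher in GR-cKO hearts, with a median log2 fold change of -0.16, and none passed. The summed level of the class was 3229, 3309 and 3076 CPM in GR-cKO replicates 1, 2 and 3, against 3496, 3936 and 3396 CPM in control replicates 1, 2 and 3. All 3 GR-cKO sums lay below all 3 control sums, by a gap that was narrow beside the spread within the control hearts. The median of the class stayed negative in every alternative fit, from -0.27 without control replicate 1 to -0.10 with spike-in scaling.

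Type III collagen is the pliable fibre of young and growing tissue, and Col3a1 encodes its single chain. Col3a1 was at 909, 1065 and 864 CPM in GR-cKO hearts, against 1177, 1222 and 1071 CPM in control hearts. Every GR-cKO library was below every control library, with GR-cKO replicate 2 only just so. On the log2 scale the difference was -0.29 (SE 0.112, 95% interval -0.53 to -0.05, edgeR adjusted p = 0.998), a level of 0.818 times that of control hearts. Relative to Col1a1, Col3a1 had 0.891, 1.08 and 0.906 reads per Col1a1 read in GR-cKO hearts, against 1.163, 1.03 and 1.08 in control hearts. In control hearts Col3a1 was the most abundant collagen in all 3 libraries, and in GR-cKO replicates 1 and 3 Col1a1 exceeded it.

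Type I collagen, the stiff main fibre of the adult heart, is built of Col1a1 and Col1a2 chains. Col1a1 was at 1019, 983 and 955 CPM in GR-cKO hearts, against 1012, 1183 and 989 CPM in control hearts. Col1a2 was at 895, 898 and 918 CPM in GR-cKO hearts, against 902, 1097 and 925 CPM in control hearts. For both chains the GR-cKO values lay among or near those of control replicates 1 and 3, and control replicate 2 was the high one. Their log2 fold changes were alike, at -0.11 for Col1a1 (95% interval -0.33 to 0.12) and -0.11 for Col1a2 (95% interval -0.34 to 0.12). Without control replicate 2 they were -0.02 and -0.01. The ratio of Col1a2 to Col1a1 reads was 0.878 to 0.961 in GR-cKO hearts and 0.890 to 0.935 in control hearts, so both chains of type I kept nearly the same proportion in all 6 hearts.

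The sequence before the start site was read for the abundant fibrillar chains Col1a2 and Col3a1, to show how unlike these neighbours in level are at that place. The windows, from RefSeq on GRCm38.p6, hold 250 bases before and 50 after the start, and capitals mark CCAAT or its complement ATTGG, the box bound by the factor NF-Y.
Col1a2 (chr6:4505368-4505667, plus strand): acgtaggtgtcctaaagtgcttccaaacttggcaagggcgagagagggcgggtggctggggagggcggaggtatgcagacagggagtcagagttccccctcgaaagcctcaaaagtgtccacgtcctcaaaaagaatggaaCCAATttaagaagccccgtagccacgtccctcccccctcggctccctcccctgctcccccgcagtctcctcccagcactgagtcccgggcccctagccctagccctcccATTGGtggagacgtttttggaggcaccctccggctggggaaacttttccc
Col3a1 (chr1:45311288-45311587, plus strand): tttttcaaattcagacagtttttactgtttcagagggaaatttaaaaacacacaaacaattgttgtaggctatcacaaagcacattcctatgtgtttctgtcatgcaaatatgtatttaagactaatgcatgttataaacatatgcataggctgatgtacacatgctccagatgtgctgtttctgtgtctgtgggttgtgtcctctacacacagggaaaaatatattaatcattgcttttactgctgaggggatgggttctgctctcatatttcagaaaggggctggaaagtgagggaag
The Col1a2 window is 61.0% G or C and holds 2 CCAAT boxes and 2 GC boxes (GGGCGG, searched on both strands). The Col3a1 window is 37.7% G or C, holds neither box, and has a TATAAA on the strand of the gene.

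Type V collagen is a minor chain set inside type I fibres that sets their diameter. Col5a2 was at 113, 102 and 99.8 CPM in GR-cKO hearts, against 122, 141 and 126 CPM in control hearts. The groups did not overlap, and control replicate 2 was again the highest. Its log2 fold change was -0.30 (SE 0.114, 95% interval -0.54 to -0.06, edgeR adjusted p = 0.998). Col5a1 was at 239, 213 and 196 CPM in GR-cKO hearts, against 233, 237 and 235 CPM in control hearts. The control hearts were nearly equal to each other, and GR-cKO replicate 1 lay above them all, so the groups overlapped (log2 fold change -0.12, 95% interval -0.36 to 0.11). Col5a3, another type V chain, averaged 24.0 ± 2.18 CPM in GR-cKO hearts and 24.8 ± 2.24 CPM in control hearts (SD, n = 3 each).

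Col3a1 and Col5a2 are neighbours on chromosome 1, with their 3′ ends facing across a gap of 24.6 kb, and they were the fibrillar genes of smallest p. The log2 fold changes of Col4a1 and Col4a2, also neighbours, were -0.04 and 0.00, and likeness between neighbours was not tested. Col6a2 and Col6a1, which follow each other on chromosome 10 with a gap of 85.2 kb, had log2 fold changes of -0.05 and -0.34. Col18a1, 326 kb from Col6a1, had a log2 fold change of 0.00. Col4a6 and Col4a5, whose 5′ ends face on the X chromosome 1.31 kb apart, had log2 fold changes of -0.70 and 0.00, the first from a gene of few reads. Col4a4 and Col4a3, whose 5′ ends face on chromosome 1 with 71 bases between, had -0.04 and 0.95, the second from a gene of few reads.

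The remaining fibrillar genes were scarce. Col27a1 averaged 14.7 ± 2.86 CPM in GR-cKO hearts and 16.9 ± 1.92 CPM in control hearts (SD, n = 3 each). Col11a1, a type XI chain of cartilage and of thin fibres, was the 1 fibrillar gene with a positive log2 fold change (0.32, 95% interval -0.28 to 0.92). Col11a2 had 50, 24 and 13 reads in GR-cKO replicates 1, 2 and 3, against 73, 66 and 40 reads in control replicates 1, 2 and 3. GR-cKO replicates 2 and 3 were below all control hearts and GR-cKO replicate 1 was not (log2 fold change -0.91, SE 0.492, edgeR adjusted p = 0.998). The log2 fold change of Col11a2 was -1.65 without GR-cKO replicate 1 and -0.57 without GR-cKO replicate 3. Col24a1 had 2 to 18 reads in GR-cKO hearts and 16 to 23 in control hearts. Col2a1, the main cartilage collagen, was not tested, with 14, 0 and 0 reads in GR-cKO replicates 1, 2 and 3 and 0, 1 and 23 in control replicates 1, 2 and 3.

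**Figure D2:**
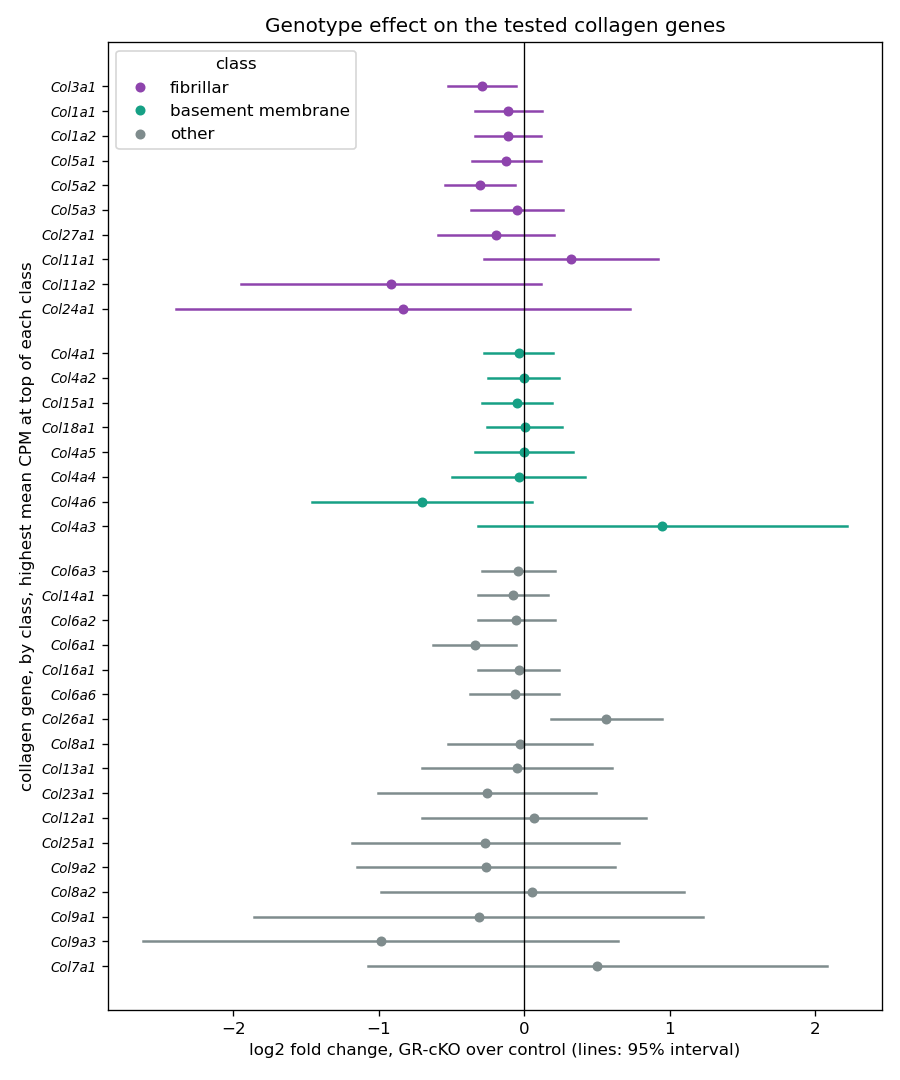
Log2 fold change of each of the 35 tested collagen genes, GR-cKO over control, with its 95% interval, grouped by class and ordered within a class by mean level. Among fibrillar genes 9 of 10 points lie below 0, the abundant basement membrane genes sit at 0, and the intervals widen towards the scarce genes.

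Basement membrane collagens were level between the genotypes. All 8 genes were tested, 6 were lower and 2 higher in GR-cKO hearts, and the median log2 fold change was -0.02, the same value for the 6 type IV chains alone. The summed level was 1484, 1276 and 1223 CPM in GR-cKO replicates 1, 2 and 3, against 1272, 1348 and 1442 CPM in control replicates 1, 2 and 3. The groups overlapped, and the highest sum was that of GR-cKO replicate 1. The sign of the class median turned without GR-cKO replicate 3 (0.05), without control replicate 3 (0.02) and with spike-in scaling (0.03).

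Col4a1 and Col4a2 encode the chains of the common type IV network found in nearly all basement membranes. Col4a1 was at 808, 657 and 663 CPM in GR-cKO hearts, against 684, 728 and 772 CPM in control hearts. Its log2 fold change was -0.04 (SE 0.114, 95% interval -0.28 to 0.20). Col4a2 was at 341, 302 and 269 CPM in GR-cKO hearts, against 292, 295 and 328 CPM in control hearts (log2 fold change 0.00, 95% interval -0.25 to 0.24). For both genes GR-cKO replicate 1 was the highest of the 6 hearts, and both intervals exclude a 1.5-fold change. The ratio of Col4a2 to Col4a1 reads was 0.422, 0.460 and 0.406 in GR-cKO replicates 1, 2 and 3, and 0.427, 0.405 and 0.425 in control replicates 1, 2 and 3.

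Both genes start from the same stretch of chromosome 8 in opposite directions, with RefSeq start sites 21 bases apart, and their promoter windows are shown because they share 78 bases. Capitals again mark CCAAT or ATTGG, and each window is written along the strand of its gene.
Col4a1 (chr8:11312777-11313076, minus strand): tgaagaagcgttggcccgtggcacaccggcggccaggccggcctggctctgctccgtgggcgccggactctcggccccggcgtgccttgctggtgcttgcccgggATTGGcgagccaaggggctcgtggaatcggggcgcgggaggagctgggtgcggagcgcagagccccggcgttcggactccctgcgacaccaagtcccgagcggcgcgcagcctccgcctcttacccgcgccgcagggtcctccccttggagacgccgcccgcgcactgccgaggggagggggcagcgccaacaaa
Col4a2 (chr8:11312555-11312854, plus strand): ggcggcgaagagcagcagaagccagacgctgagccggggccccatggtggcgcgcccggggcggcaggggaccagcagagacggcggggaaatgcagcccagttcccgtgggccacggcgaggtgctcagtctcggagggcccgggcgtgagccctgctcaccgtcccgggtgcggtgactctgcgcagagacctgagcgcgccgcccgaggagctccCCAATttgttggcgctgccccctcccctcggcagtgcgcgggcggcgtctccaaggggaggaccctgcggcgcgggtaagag
Both windows are rich in G and C, at 74.0% for Col4a1 and 73.7% for Col4a2. Each holds 1 CCAAT box, and neither holds AGAACA, the hexamer bound by 1 subunit of the glucocorticoid receptor, on either strand.

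Over all collagens, 35 of the 44 genes had such a window, 38 windows in all. Genes without a window were Col1a1, Col2a1, Col4a3, Col5a2, Col9a3, Col12a1, Col14a1, Col22a1 and Col26a1. The GC box GGGCGG was in 23 of the 38 (60.5%), against 35.7% of 32851 promoter windows of the same length. The CCAAT box was in 34.2% of collagen windows and 37.4% of all windows. The receptor hexamer AGAACA was in 2 collagen windows (5.26%), those of Col9a1 and Col20a1, against 19.0% of all windows. The full palindromic glucocorticoid response element, AGAACA and TGTTCT with any 3 bases between, was in 0 of the 38 collagen windows and in 3 of all windows. A match or its absence describes these letters in these windows only.

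Of the type IV chains restricted to particular membranes, Col4a5 was the most abundant. It averaged 32.4 ± 5.75 CPM in GR-cKO hearts and 32.5 ± 5.08 CPM in control hearts (SD, n = 3 each). Col4a4 averaged 10.1 ± 0.749 CPM in GR-cKO hearts and 10.3 ± 2.04 CPM in control hearts. Col4a6 was at 2.79, 1.56 and 2.96 CPM in GR-cKO hearts, against 3.93, 4.62 and 3.30 CPM in control hearts. The groups did not overlap, but the interval reached 0 (log2 fold change -0.70, 95% interval -1.46 to 0.05, edgeR adjusted p = 0.998). Col4a3 had 37, 27 and 27 reads in GR-cKO hearts, against 8, 15 and 26 in control hearts (log2 fold change 0.95, SE 0.604, edgeR adjusted p = 0.998). Leaving out control replicate 1 made it 0.58, and leaving out control replicate 3 made it 1.51. Its exons overlap C430014B12Rik on the opposite strand, which has an exon reaching the last 1000 annotated bases of Col4a3. The count of Col4a3 is therefore uncertain where strand was not used in counting.

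Types XV and XVIII sit at the outer face of basement membranes, and their C-terminal ends release the fragments restin and endostatin. Col15a1 was at 203, 196 and 187 CPM in GR-cKO hearts, against 181, 207 and 217 CPM in control hearts. The GR-cKO values lay inside the control range (log2 fold change -0.05, 95% interval -0.29 to 0.19). Col18a1 averaged 72.1 ± 10.1 CPM in GR-cKO hearts and 71.9 ± 2.38 CPM in control hearts (SD, n = 3 each), with a log2 fold change of 0.00.

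Among the other types, 13 of 17 tested genes were lower and 4 higher in GR-cKO hearts, with a median log2 fold change of -0.05. None passed. The summed level was 610, 595 and 570 CPM in GR-cKO replicates 1, 2 and 3, against 619, 606 and 640 CPM in control replicates 1, 2 and 3, and the groups overlapped.

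Type VI collagen is assembled from Col6a1, Col6a2 and 1 further chain, most often Col6a3. Col6a1 was at 62.1, 66.5 and 47.7 CPM in GR-cKO hearts, against 69.3, 83.1 and 70.7 CPM in control hearts. All GR-cKO values were below all control values, with GR-cKO replicate 3 by far the lowest. On the log2 scale the difference was -0.34 (SE 0.135, 95% interval -0.62 to -0.05, edgeR adjusted p = 0.998) and was -0.21 without GR-cKO replicate 3. Its partner chains were not lower to that degree. Col6a2 was at 143, 130 and 104 CPM in GR-cKO hearts, against 133, 120 and 136 CPM in control hearts (log2 fold change -0.05, 95% interval -0.32 to 0.21). Col6a3 was at 137, 130 and 167 CPM in GR-cKO hearts, against 142, 147 and 155 CPM in control hearts (log2 fold change -0.04, 95% interval -0.29 to 0.21). GR-cKO replicate 3 was thus the lowest heart for Col6a1 and Col6a2 and the highest for Col6a3. The difference between the 3 chains was not tested.

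Col6a6, a chain that can stand in for Col6a3, averaged 25.9 ± 2.73 CPM in GR-cKO hearts and 27.1 ± 1.78 CPM in control hearts (SD, n = 3 each). Col6a4 and Col6a5, the other alternative chains, had at most 10 and 5 reads in a library and were not tested.

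Among collagens that decorate fibres rather than form them, Col14a1, Col16a1 and the scarce Col12a1 had similar mean levels in both genotypes. Col14a1, a fibre-associated type of mature connective tissue, was at 130, 142 and 116 CPM in GR-cKO hearts, against 141, 130 and 138 CPM in control hearts. Its log2 fold change was -0.07 (95% interval -0.31 to 0.17). Col16a1, also fibre-associated, averaged 52.7 ± 1.45 CPM in GR-cKO hearts and 54.0 ± 8.59 CPM in control hearts (SD, n = 3 each). Col12a1, another fibre-associated type, averaged 2.89 ± 0.524 CPM in GR-cKO hearts and 2.74 ± 0.597 CPM in control hearts. The type IX chains of cartilage were scarce and lower in GR-cKO hearts, with wide intervals that included 0. The log2 fold change was -0.31 for Col9a1 (SE 0.735) and -0.26 for Col9a2 (SE 0.423). Col9a3 had 17, 4 and 7 reads in GR-cKO hearts, against 21, 32 and 8 in control hearts (log2 fold change -0.98, SE 0.778, edgeR adjusted p = 0.998). Leaving out GR-cKO replicate 1 made the log2 fold change of Col9a3 -1.80, and leaving out control replicate 2 made it -0.42. The exons of Col9a3 overlap Tcfl5 on the opposite strand, which has an exon reaching the last 1000 annotated bases of Col9a3. The count of Col9a3 is thus uncertain in the same way as that of Col4a3.

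Col26a1 was the collagen of smallest p, and it was higher in GR-cKO hearts where most collagens were lower. Its protein is a secreted collagen first described in testis and ovary. Col26a1 was at 17.98, 17.6 and 20.4 CPM in GR-cKO hearts, against 12.0, 11.2 and 14.7 CPM in control hearts. Every GR-cKO library was above every control library. On the log2 scale the difference was 0.57 (SE 0.182, 95% interval 0.19 to 0.95, edgeR adjusted p = 0.998), a level of 1.48 times that of control hearts. Leaving out 1 library at a time gave 0.49 to 0.69. It ranked 52 by p among the 14860 tested genes.

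Col8a1, a short-chain collagen of vessel walls, was the most variable of the collagens with a mean of at least 10 CPM. It was at 21.4, 11.3 and 12.8 CPM in GR-cKO hearts, against 12.0, 18.6 and 15.6 CPM in control hearts, with high and low hearts in both groups (log2 fold change -0.03, SE 0.235). Col8a2, the other type VIII chain, averaged 1.72 ± 0.684 CPM in GR-cKO hearts and 1.65 ± 0.298 CPM in control hearts (SD, n = 3 each). The transmembrane types XIII, XXIII and XXV averaged 5.79 ± 2.32, 3.06 ± 0.972 and 2.21 ± 0.691 CPM in GR-cKO hearts, and 5.96 ± 1.14, 3.66 ± 1.01 and 2.67 ± 1.32 CPM in control hearts (Col13a1, Col23a1 and Col25a1, SD, n = 3 each). Col7a1, the anchoring fibril of skin, averaged 0.658 ± 0.208 CPM in GR-cKO hearts and 0.458 ± 0.211 CPM in control hearts.

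Of the 44 genes, 9 had too few reads for the test, which were Col2a1 and the 8 other-type genes Col6a4, Col6a5, Col10a1, Col17a1, Col19a1, Col20a1, Col22a1 and Col28a1. None had more than 27 reads in a library. Col28a1, which is made by the glial cells of peripheral nerves, had 6, 18 and 9 reads in GR-cKO hearts and 27, 9 and 7 in control hearts. Col10a1, the collagen of hypertrophic cartilage, had 0 reads in every GR-cKO library and 0, 5 and 0 in control replicates 1, 2 and 3.

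How small a difference could be seen varied with the level of the gene. For the 21 collagens with a mean of at least 10 CPM, the SE of the log2 fold change ran from 0.108 to 0.235, and 18 of them had a 95% interval that excluded a 1.5-fold change in either direction. The other 3 were Col6a1, Col27a1 and Col26a1. For the 14 tested collagens below 10 CPM the SE ran from 0.285 to 0.778, and none of their intervals excluded a 1.5-fold change. Among all tested genes, 47.8% of intervals excluded it.

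**Figure D3:**
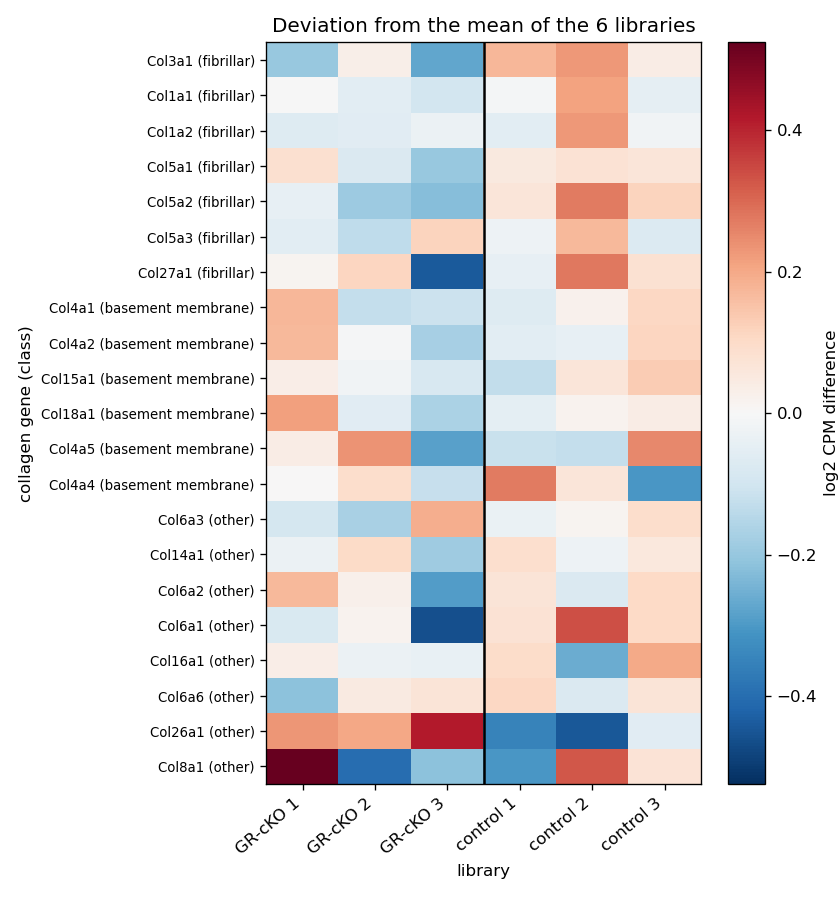
Difference of each library's log2 CPM from the mean of the 6 libraries for the 21 collagens with a mean of at least 10 CPM, with GR-cKO libraries left of the line and control libraries right of it. GR-cKO replicate 3 is the lowest library for 11 of the 21 genes, control replicate 2 is the highest for 7, and Col26a1 runs opposite to most.

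The lean to lower values varied with the hearts included. Of the 21 collagens with a mean of at least 10 CPM, 19 were lower and 2 higher in GR-cKO hearts. Of all 8419 tested genes at that level, 3972 were lower and 4447 higher. The limit of 10 CPM was chosen after the data were seen. With scaling by the ERCC spike-in RNAs, 13 of the 21 were lower. With a library left out, the count of lower genes was 18, 15 and 13 of the 21 without GR-cKO replicates 1, 2 and 3, and 18, 17 and 14 without control replicates 1, 2 and 3. GR-cKO replicate 3 was the lowest of the 6 libraries for 11 of the 21. Control replicate 2 was the highest for 7 of the 21, all but 1 of them fibrillar. GR-cKO replicate 1 was the highest for 6 of the 21, among them Col4a1, Col4a2 and Col18a1 of the basement membrane. Over the fibrillar class, GR-cKO replicate 3 deviated by a median of -0.25 and control replicate 2 by 0.23 (log2 CPM, against the mean of the 6 libraries), and the other 4 libraries by -0.06 to 0.05. GR-cKO replicate 3 is also the library with the high share of Gm42418 reads and the low cell cycle markers, and control replicate 2 the library with the high adipose markers. Their part in the collagen values was not tested.

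Markers of the cells that make collagen were measured in the same hearts. Of 14 fibroblast markers other than collagens, 11 were lower and 3 higher in GR-cKO hearts, with a median log2 fold change of -0.10, and none passed. Their summed level was 1996, 2141 and 2315 CPM in GR-cKO replicates 1, 2 and 3, against 2259, 2607 and 2096 CPM in control replicates 1, 2 and 3, and none was at 0. The highest fibroblast sum and the highest fibrillar sum were both those of control replicate 2. GR-cKO replicate 3 had the lowest fibrillar sum but the highest fibroblast marker sum of the GR-cKO hearts. The markers did not move together there. Dcn and Gsn, which weighed most in the sum, were at 615, 664 and 906 CPM and at 420, 470 and 565 CPM in GR-cKO replicates 1, 2 and 3. Postn (355, 369 and 275 CPM) and Mfap5 (94.0, 109 and 53.1 CPM) went the other way. These markers were singled out after their values were seen. In bulk tissue, fewer fibroblasts and less collagen mRNA per fibroblast cannot be told apart.

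Endothelial markers, from cells that make much of the type IV collagen of the heart, had 7 of 10 members lower, with summed levels of 3074 to 3292 CPM in GR-cKO hearts and 3045 to 3198 CPM in control hearts. Fabp4 and Pecam1 weighed most in that sum. Singled out after their values were seen, Vwf and Egfl7 did not overlap between groups. Vwf was at 17.8 to 23.7 CPM in GR-cKO hearts and 28.6 to 32.0 CPM in control hearts. Egfl7 was at 366 to 371 CPM in GR-cKO hearts and 214 to 355 CPM in control hearts. Mural cell markers summed to 2079 to 2272 CPM in GR-cKO hearts and 1796 to 2026 CPM in control hearts, without overlap, although 7 of the 10 markers were lower, with a median log2 fold change of -0.04. Acta2, the smooth muscle actin, singled out after its values were seen, averaged 1103 CPM in GR-cKO hearts and 807 CPM in control hearts, and without it the sums averaged 1042 CPM in GR-cKO hearts and 1067 CPM in control hearts. Epicardial and mesothelial markers had 7 of 8 members higher, with sums of 49.97 to 81.2 CPM in GR-cKO hearts and 51.0 to 67.7 CPM in control hearts. Cartilage and valve markers summed to 59.0 to 85.2 CPM in GR-cKO hearts and 54.5 to 84.5 CPM in control hearts, with Matn3 at 0 in all libraries. Nearly all of this sum was Sox9, which averaged 67.5 CPM in GR-cKO hearts and 66.4 CPM in control hearts. Of the 8 members 4 were tested, 2 lower and 2 higher in GR-cKO hearts. No marker on these lists passed, and their part in the collagen values was not tested.

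**Figure D4:**
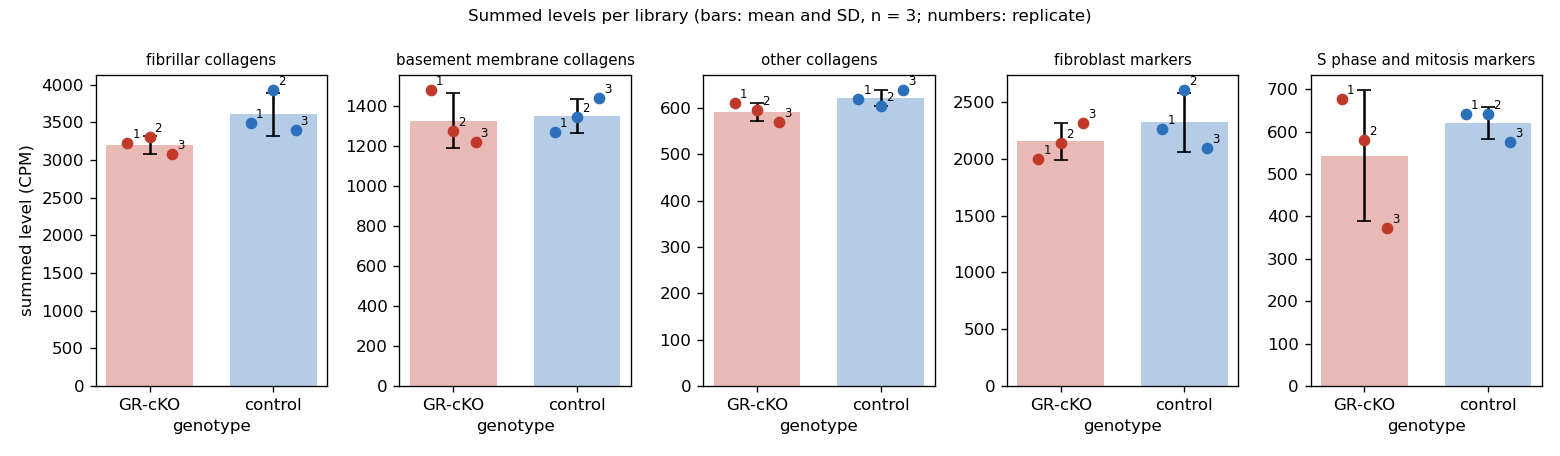
Summed CPM of the fibrillar, basement membrane and other collagens, of 14 fibroblast markers and of 15 S phase and mitosis markers, with 1 point per library (numbers give the replicate), bars at group means and error bars of 1 SD. The fibrillar sums of GR-cKO hearts lie below those of control hearts, the other sums overlap, and GR-cKO replicate 3 is the lowest in S phase and mitosis markers.

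The genes that modify, cut, crosslink, degrade and sense collagen showed no call either. Of 57 such genes in 5 lists, 51 were tested, 21 were higher and 30 lower in GR-cKO hearts, and none passed the edgeR test. At an unadjusted p under 0.05, 1 was higher and 1 lower, close to the 2.07% and 2.13% of all tested genes. Their median log2 fold change was -0.06.

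Inside the cell, new chains are hydroxylated, folded and chaperoned. Of 19 genes on this list, which also holds the extracellular Sparc, 7 were higher and 12 lower, with a median log2 fold change of -0.04. Fkbp10, a folding enzyme needed for collagen crosslinks, was at 147, 146 and 199.98 CPM in GR-cKO hearts, against 138, 116 and 135 CPM in control hearts. The groups did not overlap, and the highest value was that of GR-cKO replicate 3 (log2 fold change 0.34, SE 0.134, edgeR adjusted p = 0.998). Mia3, which loads procollagen into transport carriers, averaged 101 ± 11.8 CPM in GR-cKO hearts and 115 ± 8.996 CPM in control hearts (SD, n = 3 each). Sparc, an extracellular collagen-binding chaperone and the most abundant gene of the list, averaged 1914 ± 99.2 CPM in GR-cKO hearts and 1869 ± 92.4 CPM in control hearts.

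Outside the cell, the end pieces of procollagen are cut off and the fibres are crosslinked. Of 6 tested cleavage genes, 3 were higher and 3 lower. Pcolce, which speeds removal of the C-terminal end piece, averaged 78.6 ± 2.61 CPM in GR-cKO hearts and 86.6 ± 5.02 CPM in control hearts (SD, n = 3 each). Adamts2, which removes the N-terminal piece, was at 125, 143 and 74.7 CPM in GR-cKO hearts, against 130, 137 and 133 CPM in control hearts, and its low value was again that of GR-cKO replicate 3. Of 6 tested crosslinking genes, 1 was higher and 5 lower. Pxdn, which crosslinks type IV networks, was at 180, 194 and 145 CPM in GR-cKO hearts, against 180, 248 and 199 CPM in control hearts (log2 fold change -0.28, SE 0.138, edgeR adjusted p = 0.998). Loxl2, a lysyl oxidase, averaged 56.4 ± 11.5 CPM in GR-cKO hearts and 64.9 ± 13.1 CPM in control hearts.

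Genes of collagen breakdown and its inhibitors had 6 of 12 tested members higher and 6 lower. Timp2, an inhibitor of matrix proteases and the most abundant of them, averaged 569 ± 20.3 CPM in GR-cKO hearts and 561 ± 26.2 CPM in control hearts (SD, n = 3 each). Timp4, the inhibitor most typical of heart, averaged 9.05 ± 4.17 CPM in GR-cKO hearts and 6.82 ± 0.974 CPM in control hearts, and Ctsk, a protease that cuts triple-helical collagen, 8.06 ± 1.184 CPM in GR-cKO hearts and 10.1 ± 3.98 CPM in control hearts. Of 8 tested collagen receptors, 4 were higher and 4 lower. Itga2, the integrin chain by which platelets and other cells hold collagen, was at 2.96, 1.70 and 1.56 CPM in GR-cKO hearts, against 3.41, 3.70 and 4.93 CPM in control hearts. The groups did not overlap, at a low level (log2 fold change -0.95, SE 0.374, edgeR adjusted p = 0.998). Ddr1, a collagen-activated kinase, averaged 125 ± 24.9 CPM in GR-cKO hearts and 105 ± 8.17 CPM in control hearts, and Itgb1, the common partner chain of collagen-binding integrins, 357 ± 5.88 CPM in GR-cKO hearts and 348 ± 4.76 CPM in control hearts.

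Of the 44 collagen genes, 29 had at least 40 exons, and the share of all genes with that many was not counted. Fibrillar genes had 51 to 67 exons in their longest annotated coding transcript and basement membrane genes 40 to 54, while the other types ranged from 3 (Col10a1) to 119, with 10 of 25 at 40 or more (GENCODE M21, GRCm38). Gene length ranged from 7.11 to 468 kb. Col1a1, among the most abundant, is one of the compact genes, with 16.8 kb on chromosome 11.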

How the data were processed

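Whole hearts at postnatal day 7 were profiled in 3 GR-cKO and 3 control libraries. Per the labels' protocols, QuantSeq FWD 3′ libraries took 100 ng of total RNA each. The deposited files hold raw counts, whole numbers of reads per Ensembl gene, 1 library per file, not pooled. The submitters' processing notes name, in no set order, GRCm38, STAR 2.5.4a, cutadapt 1.16, DESeq2 1.18.1, featureCounts 1.6.2, FastQC 0.11.7, bcl2fastq and MultiQC 1.5. The sources used here do not give the annotation release or the strand setting.

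Symbols and biotypes came from GENCODE M21 (GRCm38). Spike-in rows (1.63 to 2.01% of reads) were left out. edgeR 4.0.16 in R 4.3.3 filtered genes with filterByExpr, scaled by TMM and tested genotype on all 14860 genes (quasi-likelihood, robust, Benjamini-Hochberg, threshold 0.05), and all p-values of genes come from it unless another tool is named. The fit was tested on simulated data. Log2 CPM used a prior count of 2. Alternatives were other scalings, no filter, DESeq2 1.42.0, limma 3.58.1 voom, a replicate block, library sex (replicate 1 female in each group, the others male) and each library left out. Summed levels and class medians are descriptions without a test. Genes described one by one are the 10 most abundant tested collagens, the 8 of smallest p and, per processing list, the most abundant gene and the 2 of smallest p. Other collagens are named to account for every member. The members, classes and lists were chosen with earlier results of these data known. Intervals are for the log2 fold change between genotypes. They and the p-values take in only the variation between hearts of the same genotype, counting noise included.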

Additional observations from a re-analysis of the deposited data

How the results depend on the processing

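No collagen gene and no gene of collagen processing or sensing was called under any alternative run, while the count of all called genes was 1, and 2 with library totals, 3 by DESeq2, 10 without the low count filter and 1 to 2 with a library left out. Collagens at an unadjusted p under 0.05 numbered 4, 1 with spike-in scaling and 1 to 5 with a library left out, the 1 being without control replicate 2. With a library left out, class medians ran from -0.27 to -0.11 (fibrillar), -0.08 to 0.05 (basement membrane) and -0.11 to 0.00 (other). Spike-in scaling turned Col4a1 (0.0031), Col4a2 (0.0435) and Col6a2 (0.00092) to just above 0, and leaving out a library gave -0.138 to 0.0125 for Col4a1, -0.0905 to 0.0774 for Col4a2, -0.121 to 0.00854 for Col15a1, -0.155 to 0.0306 for Col6a3 and -0.154 to 0.0657 for Col6a2. The cause was not tested. The direction of Col3a1, Col5a2, Col6a1 and Col26a1 was the same in all alternatives. Replicate 1 is the female library in both groups, and the labels state no pairing of libraries of the same number: deviations of same-numbered libraries correlated at 0.0620, 0.0562 and 0.0144 across genes, and each library correlated best with its own number except in the third pair. With the replicate block, 0 collagens were called, 5 had an unadjusted p under 0.05 and the fibrillar median was -0.17. The 14 tested collagens below 10 CPM had the largest SEs, and their intervals all include a 1.5-fold change.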
